A study of Mus musculus with 74 samples.

Results

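The Hox genes of the mouse were followed in single cells of the pro-epicardial organ, a short-lived outgrowth of mesothelium beside the venous pole of the heart tube that gives rise to the epicardium. The members were all genes of the deposited table whose mouse symbol is Hox with the letter a, b, c or d and a number, without antisense or opposite-strand genes. They were 39 of 30323 genes, with 11 in HoxA, 10 in HoxB, 9 in HoxC and 9 in HoxD. The table holds 74 cells from Tbx18Cre;mTmG embryos of the C57BL/6 strain at embryonic day 9.5, which were dissociated and sorted by flow cytometry as pro-epicardial cells. In such embryos Cre is driven by Tbx18, and the mTmG reporter changes the colour of the membrane label in cells with a history of Cre, so the sort selects a lineage and not the whole organ. All cells belong to 1 group without treatment or control, and their polyadenylated RNA was amplified at full length with SMART-Seq V4 and made into Nextera XT libraries.

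Hox genes encode homeodomain transcription factors that give cells their position along the head-to-tail axis. They lie in clusters in which genes at the 3′ end are switched on earlier and further forward than genes at the 5′ end, and genes at matching places in different clusters form a numbered paralogue group. Low-numbered genes respond directly to retinoic acid, and many Hox proteins bind DNA together with Pbx and Meis proteins of the TALE family. In the embryonic heart, low-numbered Hox genes are known from progenitors of the second heart field that build the outflow and inflow poles.

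The cells held between 216177 and 2618538 estimated counts, with a median of 849718. No embryo or litter is given for any cell, so all 74 count as 1 sample. For this reason no test compares cells, errors are SD over cells, and shares carry exact (Clopper-Pearson) 95% intervals that cover the counting of cells alone. Detection of a gene means 5 or more counts in that cell. Levels are in CPM, counts scaled to a common total in every cell, and levels of different genes were compared after division by the length of their annotated exons in kilobases, since full-length libraries give long transcripts more counts. The pro-epicardial transcription factors Tbx18, Tcf21 and Wt1 were detected in 69, 63 and 60 of the 74 cells. Cells were grouped without any Hox gene into cluster 1 with 32 cells, cluster 2 with 32 and cluster 3 with 10.

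Cluster 1 was epicardial-like, where 16 of 20 epicardial markers each reached 50% of its cells, and its leading genes included Tm4sf5, Vwa1, Lhx9 and the uroplakin Upk1b. By a 2-fold ratio of means to all other cells, 14 of the 20 were higher in cluster 1. Aldh1a2, Tbx20 and Gata5 of that list were lower. Cluster 3 was cardiomyocyte-like, where 11 of 15 cardiomyocyte markers each reached that share, and its leading genes included Xirp1, Myh6 and Csrp3. Cluster 2 was led by the LIM homeobox gene Lhx2, Tmem119, Shisa3, Adamts2, Dkk1 and Pdgfrb. In it 10 of 15 septum transversum markers and 10 of 20 epicardial markers reached that share, and it was left without a cell type name. The septum transversum count was 9 in cluster 1 and 10 in cluster 3, so it does not set cluster 2 apart. The mean silhouette of cluster 2 was 0.0507, with 8 of 32 cells below 0. Its edges were thus less distinct than those of clusters 1 and 3, whose mean silhouettes were 0.449 and 0.348 with no cell below 0.

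The 5 HoxB genes that were detected in at least 10% of cells lie side by side on the plus strand of chromosome 11 (GRCm38), with Hoxb5 at 96303336 to 96306121, Hoxb4 at 96318267 to 96321638, Hoxb3 at 96323326 to 96347930, Hoxb2 at 96350525 to 96354012 and Hoxb1 at 96365752 to 96368256. These genes are close relatives, so shared sequence was counted. Over whole transcripts the share of 31-base runs also found in another Hox gene was highest for Hoxd4 with 12.1%, Hoxd3 with 9.26%, Hoxc10 with 7.34%, Hoxc5 with 4.55% and Hoxa6 with 3.32%. It was 0 for Hoxa2, Hoxb1, Hoxb2, Hoxb5 and Hoxc4. This count covers Hox genes alone, and 15.0% of Hoxa2 exon bases are shared with another gene on the same strand.

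The 250 bases before the start sites of Hoxb1, Hoxa2 and Hoxb4 are shown as examples of members that were higher in cluster 2 and hold motifs for the proteins named above. Hoxc4 is also such a member and is not shown. They come from RefSeq (GRCm38.p6), which matched 22 of the Hox genes with 24 promoters. The Hoxb1 promoter is at chr11:96365508-96365757 on the plus strand, that of Hoxa2 at chr6:52164832-52165081 on the minus strand and that of Hoxb4 at chr11:96318017-96318266 on the plus strand. Capitals mark a Hox-Pbx motif (TGATNNAT) in Hoxb1, the same motif on the other strand and a Meis motif (TGACAG) in Hoxa2, and the repeat unit of retinoic acid receptor sites (AGGTCA, here on the other strand) in Hoxb4.
Hoxb1: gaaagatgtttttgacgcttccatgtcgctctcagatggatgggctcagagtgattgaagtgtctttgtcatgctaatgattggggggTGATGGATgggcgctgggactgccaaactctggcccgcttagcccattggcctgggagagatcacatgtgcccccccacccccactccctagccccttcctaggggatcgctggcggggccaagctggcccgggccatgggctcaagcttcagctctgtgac
Hoxa2: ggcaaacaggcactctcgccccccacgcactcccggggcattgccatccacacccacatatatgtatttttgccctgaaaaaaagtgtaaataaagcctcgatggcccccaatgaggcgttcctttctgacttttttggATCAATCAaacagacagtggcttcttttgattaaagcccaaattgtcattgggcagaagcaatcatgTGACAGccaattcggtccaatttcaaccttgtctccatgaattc
Hoxb4: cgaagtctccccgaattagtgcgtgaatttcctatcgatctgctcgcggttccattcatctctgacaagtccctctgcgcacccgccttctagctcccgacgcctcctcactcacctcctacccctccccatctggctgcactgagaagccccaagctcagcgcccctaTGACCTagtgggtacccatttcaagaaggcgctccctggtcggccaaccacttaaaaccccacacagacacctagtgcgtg
Both strands were searched. In promoters of this length the Hox-Pbx motif was in 7.68% of all 32851 and in 4 of the 24 Hox promoters. These were of Hoxa2, Hoxb1, Hoxb8 and Hoxd11, and neither Hoxb8 nor Hoxd11 was detected in any cell. The Meis motif was in 15.9% and in 2 of 24, those of Hoxa2 and Hoxa3. AGGTCA was in 14.0% of all and in 6 of 24, which belonged to Hoxb4, Hoxc4, Hoxd3, Hoxd4, Hoxd8 and Hoxd10. The homeodomain core TAATTA was in 4.84% of all and in 2 of 24, both of Hoxd11. These are matches of letters and were not tested for binding. The promoters of Hoxb2, Hoxb3 and Hoxb5 were not used here.

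Of the 39 Hox genes, 20 were detected in at least 1 cell and 8 in at least 10% of cells. The 8 include Hoxa2, Hoxb1, Hoxb2, Hoxb3, Hoxb4, Hoxb5 and Hoxc4, and all are of paralogue groups 1 to 5. The 12 below 10% of cells were Hoxa3, Hoxa4, Hoxa5, Hoxa13, Hoxb6, Hoxc5, Hoxc13, Hoxd1, Hoxd3, Hoxd4, Hoxd8 and Hoxd9. Counts of 1 to 4 per cell were the most seen for Hoxa7, Hoxa9, Hoxa10, Hoxb9, Hoxc6, Hoxc8, Hoxc9, Hoxc10, Hoxd10 and Hoxd11. No count in any cell was recorded for Hoxa6, Hoxa11, Hoxb7, Hoxb8, Hoxb13, Hoxc11, Hoxc12, Hoxd12 and Hoxd13, which allows each a share of up to 4.05% of cells (3 of 74).

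All Hox genes together had 8406 counts, 0.0120% of all counts. Of these raw counts, which are not corrected for length or depth, HoxB held 81.3%, HoxA 14.2%, HoxC 2.50% and HoxD 2.00%. By paralogue group, groups 1 and 2 held 77.0% of Hox counts, groups 3 to 5 held 21.4% and groups 6 to 13 held 1.58%. Per kilobase of exon, so that genes can be compared, Hoxb2 made up 44.7% of the summed Hox level. By that measure HoxB held 70.3%, HoxA 23.3%, HoxC 4.34% and HoxD 2.03%. Groups 1 and 2 then held 70.7%, groups 3 to 5 held 27.4% and groups 6 to 13 held 1.85%.

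**Figure D1:**
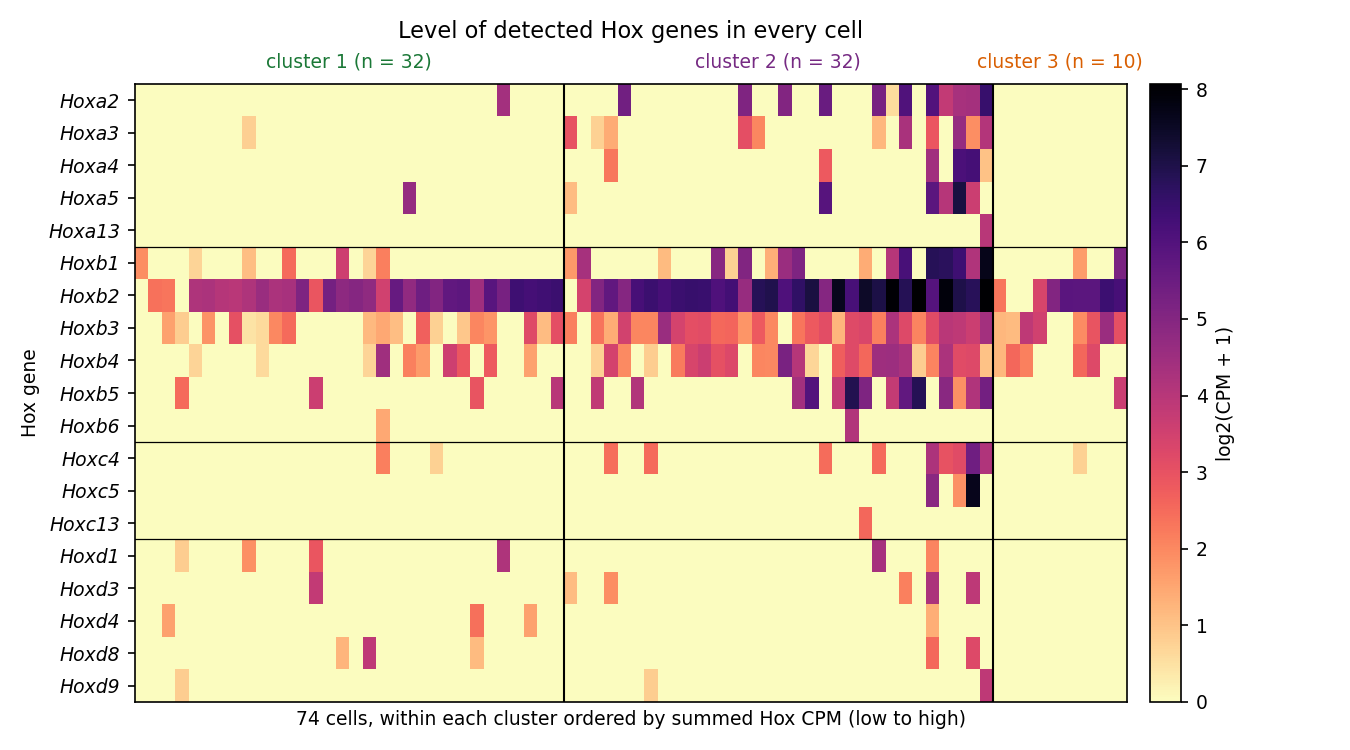
Level of 19 of the 20 detected Hox genes (rows, grouped by genome cluster) in each of the 74 cells (columns, in 3 cell clusters ordered by summed Hox CPM), as log2(CPM + 1). Hoxb2 fills most columns, and the other members lie mainly in cluster 2, above all in the cells of highest summed Hox CPM.

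Hoxb2, a target of Egr2 and of other Hox proteins in the hindbrain, was the most widely found member. Its transcripts were in 62 of 74 cells (83.8%, interval 73.4% to 91.3%), and its level was 64.2 ± 62.7 CPM (SD, 74 cells). Per kilobase it stood at 18.4 ± 18.0, and it had the highest level per kilobase of all Hox genes in 53 cells: 24 of cluster 1, 21 of cluster 2 and 8 of cluster 3. Its lowest, median and highest CPM were 0, 25.8 and 86.5 in cluster 1, 0, 87.3 and 267 in cluster 2, and 0, 43.5 and 84.5 in cluster 3. The clusters overlapped, and every cell above 87 CPM was in cluster 2. The means were 31.7 ± 24.4 CPM (SD, n = 32 cells), 105 ± 72.9 (n = 32) and 37.0 ± 32.2 (n = 10), which set cluster 2 at 3.19 times all other cells. Exons of the opposite-strand gene Hoxb3os overlap 27.3% of Hoxb2 exon bases, and the labels name no strand marking, so reads from the overlap cannot be told apart.

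The next levels per kilobase were 4.76 ± 13.8 for Hoxb1, 3.63 ± 9.71 for Hoxa2 and 2.87 ± 7.83 for Hoxb5. Hoxa5 stood at 2.17, Hoxb4 at 1.62, Hoxa4 at 1.5, Hoxb3 at 1.12, Hoxc5 at 1.00 and Hoxc4 at 0.600. Each SD given here exceeds its mean. Differences between genes in the same cells were not tested, so the order is a description.

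Among group 1 genes, the first to be activated, Hoxb1 was detected in 14 cells (18.9%, interval 10.7% to 29.7%). Hoxb1, which acts in hindbrain segments and in second heart field progenitors, was found in 1 cell of cluster 1, 12 of cluster 2 and 1 of cluster 3. Its lowest, median and highest CPM were 0, 0 and 10.9 in cluster 1, 0, 0.966 and 205 in cluster 2, and 0, 0 and 35.4 in cluster 3. The means were 0.753 ± 2.15, 23.6 ± 45.7 and 3.75 ± 11.1 CPM, and cluster 2 stood at 16.1 times all other cells. Without the highest cell of cluster 2 and the highest of all other cells that ratio was 27.8. Hoxd1, also of group 1, was found in 2 cells of cluster 1 and 1 of cluster 2.

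Hoxa2 (chromosome 6, minus strand, 52162417 to 52164831), which gives neural crest of the pharyngeal arches its identity, was detected in 12 cells (16.2%, interval 8.67% to 26.6%). Of these, 11 were in cluster 2 and 1 was in cluster 1. Its highest CPM was 20.0, 90.2 and 0 in clusters 1 to 3, with a median of 0 in each. The means were 0.624 ± 3.53 and 14.3 ± 24.0 CPM in clusters 1 and 2, and the ratio of cluster 2 to all other cells, 30.0, rests on the single cell of cluster 1.

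Among group 3 genes, Hoxb3 was detected in 24 cells (32.4%, interval 22.0% to 44.3%), which were 2 of cluster 1, 18 of cluster 2 and 4 of cluster 3. Its lowest, median and highest CPM were 0, 0.745 and 8.15 in cluster 1, 0, 6.07 and 23.0 in cluster 2, and 0, 4.78 and 22.7 in cluster 3. Clusters 2 and 3 were thus alike in level, with means of 7.21 ± 5.62 and 6.60 ± 7.30 CPM, and cluster 1 had 1.70 ± 2.39. Cluster 2 stood at 2.51 times all other cells, and at 1.69 times with 5 components in the clustering and 1.34 times with 10 CPM added to both means. Opposite-strand exons of Hoxb3os and Gm11536 overlap 52.9% of Hoxb3 exon bases. Hoxa3, needed for thymus and parathyroid, was found in 5 cells, all of cluster 2, and opposite-strand exons overlap 25.4% of its exon bases. Hoxd3 was found in 1 cell of cluster 1 and 3 of cluster 2, and 62.3% of its exon bases are shared with another gene on the same strand.

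Group 4 was represented by Hoxb4, known for its role in blood stem cells, and by Hoxc4. Hoxb4 was detected in 19 cells (25.7%, interval 16.2% to 37.2%), which were 4, 13 and 2 cells of clusters 1 to 3. Its lowest, median and highest CPM were 0, 0 and 20.8 in cluster 1, 0, 4.28 and 35.9 in cluster 2, and 0, 0.661 and 8.43 in cluster 3. The means were 1.68 ± 4.26, 7.23 ± 8.39 and 2.30 ± 2.98 CPM, and cluster 2 stood at 3.96 times all other cells, 1.52 with 500 variable genes in the clustering. Hoxc4 (chromosome 15, plus strand, 103018934 to 103036852) was detected in 8 cells (10.8%, interval 4.78% to 20.2%), all of cluster 2, where 0 of 32 cells of cluster 1 allows a share of up to 9.38%. Its highest CPM was 3.46, 41.8 and 0.705 in clusters 1 to 3. Its ratio of cluster 2 to all other cells was 29.4 and became 1.08 with 5 components in the clustering. Hoxa4 was found in 5 cells of cluster 2 and Hoxd4 in 1 cell of cluster 1. Of Hoxd4 exon bases, 52.3% are shared with another gene on the same strand.

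Group 5 was led by Hoxb5, which acts in gut neural crest. It was detected in 18 cells (24.3%, interval 15.1% to 35.7%), which were 4, 13 and 1 cells of clusters 1 to 3. Its median was 0 in each cluster and its highest CPM was 14.8, 120 and 11.5. The means were 1.18 ± 3.46, 17.0 ± 30.9 and 1.15 ± 3.62 CPM, and cluster 2 stood at 14.5 times all other cells. Hoxa5, a gene of lung development, was found in 1 cell of cluster 1 and 4 of cluster 2 at 4.08 ± 18.5 CPM over all cells, with 38.5% of its counts in 1 cell.

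Hoxc5 had the highest single-cell CPM among members below 10% of cells. It was detected in 2 cells, both of cluster 2, at 3.10 ± 23.2 CPM over all cells. The highest cell had 198 CPM and 78.9% of its counts, so the mean describes that cell.

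**Figure D2:**
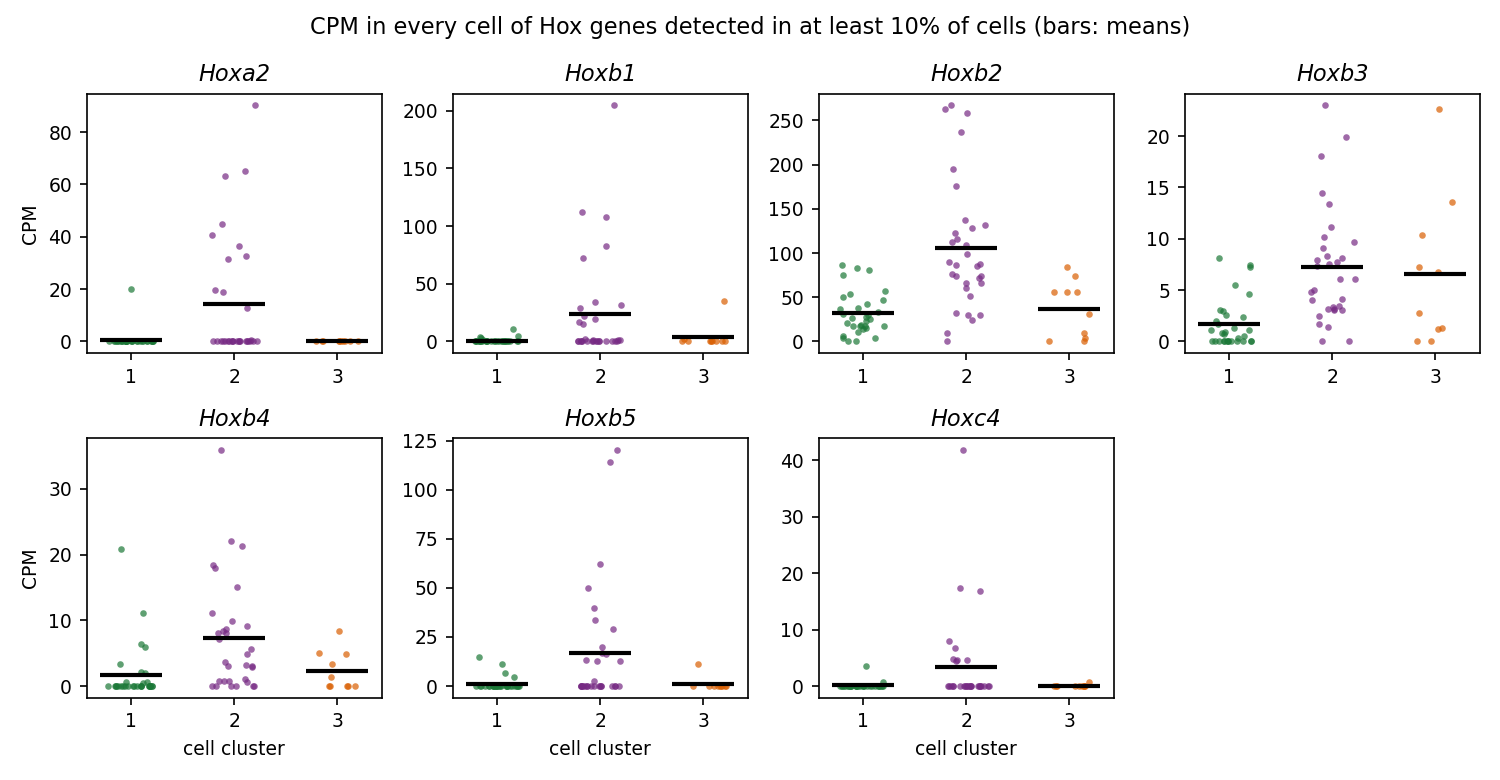
CPM of 7 of the 8 Hox genes detected in at least 10% of cells, with 1 point per cell by cell cluster (32, 32 and 10 cells) and bars at the means. Hoxb2 is above 0 in nearly all cells, Hoxb3 is similar in clusters 2 and 3, and high cells of Hoxa2, Hoxb1, Hoxb5 and Hoxc4 are nearly all in cluster 2.

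Groups 6 to 13, genes of trunk, limb and tail, hold 24 of the 39 members. Of these, 5 were detected, in 4 cells in all: 1 of cluster 1 and 3 of cluster 2. Hoxa13, a gene of digits and hindgut, with 14 counts and Hoxd9 with 13 counts were in the same cell of cluster 2, with 7 further detected Hox genes, Hoxa2, Hoxa3, Hoxb1, Hoxb2, Hoxb3, Hoxb5 and Hoxc4. That cell had the highest summed Hox level of all, 683 CPM. Hoxb6 with 10 counts and Hoxc13 with 6 counts were each in a cluster 2 cell that also had Hoxb2, Hoxb3, Hoxb4 and Hoxb5. Hoxd8 with 21 counts was in a cluster 1 cell with Hoxb2.

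Along the Hox clusters of the genome, paralogue group 2 was the most widely detected. This rests on Hoxb2, found in 62 cells, whereas Hoxa2, the other member, was found in 12. Any gene of group 1 was found in 24 cells, of group 2 in 62, of group 3 in 29, of group 4 in 26, of group 5 in 22 and of groups 6 to 13 together in 4. Any gene of groups 1 and 2 was detected in 64 cells (26 of cluster 1, 31 of cluster 2 and 7 of cluster 3) and any gene of groups 3 to 5 in 45 cells. The latter were 10 of 32 cells of cluster 1 (31.2%, interval 16.1% to 50.0%), 29 of 32 of cluster 2 (90.6%, interval 75.0% to 98.0%) and 6 of 10 of cluster 3 (60.0%, interval 26.2% to 87.8%). Thinning to a common total of 351933 counts per cell, for which 7 cells were too shallow, gave 4 of 27, 22 of 30 and 2 of 10. HoxA genes were found in 7, 15 and 0 cells, HoxC genes in 0, 9 and 0, and HoxD genes in 5, 5 and 0. In cluster 3 every detected Hox gene was thus a HoxB gene, and 0 of 10 cells allows the other clusters a share of up to 30.0% each.

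**Figure D3:**
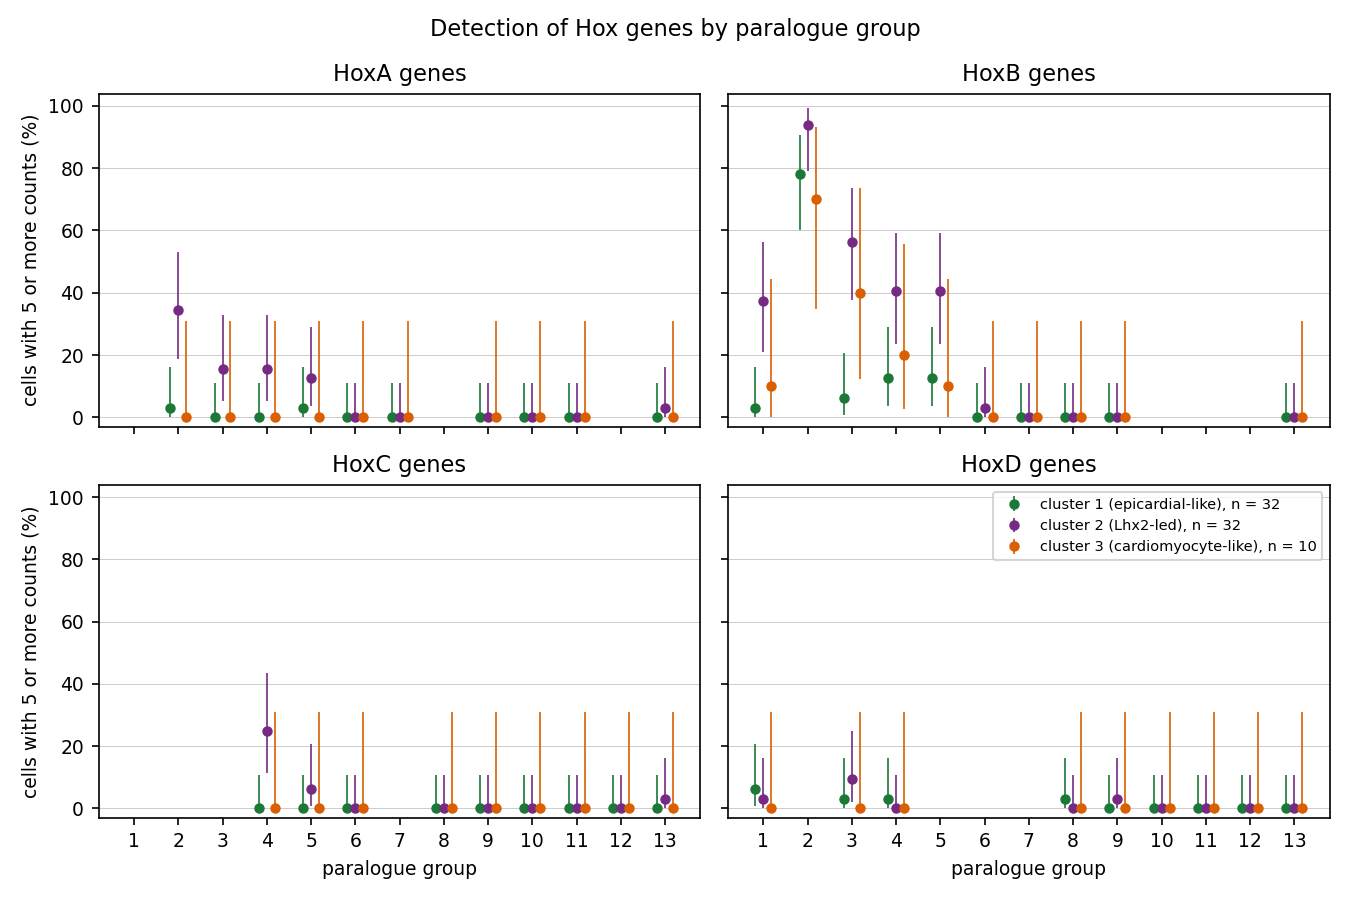
Percentage of cells with 5 or more counts of 38 of the 39 Hox genes against paralogue group, in panels for HoxA, HoxB, HoxC and HoxD. Points are cell clusters of 32, 32 and 10 cells, and bars are exact 95% intervals for counting cells. Detection is concentrated in groups 1 to 5, and cluster 2 is highest for most of these genes.

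Ratios of mean CPM were read by a 2-fold rule, a measure of size and not a test. Of 11511 genes detected in at least 10% of cells, 6.78% were higher in cluster 2 than in all other cells, and the 8 Hox genes that passed this filter were among them. The filter needs 8 of the 74 cells, and outside cluster 2 Hoxb2 alone reached that number, in 32 cells. The other 7 were in 0 to 6 cells there, so they passed through cluster 2 and the filter largely set their direction. Their counts and medians in the 3 clusters are therefore descriptions, and nothing is read from setting them beside the values over all genes. None of the 8 was lower in cluster 2, against 5.89% of all genes. The median ratio of the 8 was 9.25, against 1.04 for all genes tested. With 10 CPM added to both means 4 of the 8 were higher, Hoxa2, Hoxb1, Hoxb2 and Hoxb5, and with 5 components in the clustering 5 were higher. The shares of all genes under these settings are not given.

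The counts in clusters 1 and 3 are descriptions as well, because all of the 8 but Hoxb2 passed the filter through cluster 2. In cluster 1, 7 of the 8 were lower, against 10.5% of all genes, and none was higher, against 5.12%. The ratios of these 7 to all other cells ran from 0.0399 for Hoxb1 to 0.357 for Hoxb2. Of the 8, 5 were lower in cluster 3, among them Hoxa2, Hoxb1, Hoxb5 and Hoxc4, against 17.2% of all genes, and none was higher, against 8.29%. Hoxb3 stood at 1.48 in cluster 3. With 500 variable genes in the clustering, cluster 3 grew to 25 cells. In it 1 Hox gene, Hoxb4, was higher at 2.07 and 2 were lower, while the ratios of Hoxa2 and Hoxb5 were 1.67 and 1.09. The shares of all genes under that setting are not given. The median ratio of the 8 was 0.165 in cluster 1 and 0.217 in cluster 3, against 0.964 and 0.892 for all genes tested.

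Cells differed widely in how many Hox genes they carried. The median was 2 Hox genes per cell, with a range of 0 to 9. Means were 1.5 ± 1.02 in cluster 1 (0 to 5), 4.28 ± 2.64 in cluster 2 (1 to 9) and 1.5 ± 1.18 in cluster 3 (0 to 4). No Hox gene was detected in 7 cells, 5 of cluster 1 and 2 of cluster 3. These cells still held Hox counts below the cut, as the lowest summed Hox level of any cell was 2.74 CPM. Of the 14 cells with 5 or more, 13 were in cluster 2 (40.6% of it, interval 23.7% to 59.4%) and 1 was in cluster 1. Median totals of the clusters were 762597, 973986 and 796678 counts. Over all cells the number of Hox genes had a rank correlation of 0.411 with the total. It was 0.552 within cluster 1, 0.161 within cluster 2 and 0.299 within cluster 3, given as a description of cells of 1 sample. After thinning, means were 1.11, 3.47 and 1.00 Hox genes, and 7 cells, all of cluster 2, had 5 or more.

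The summed Hox level was 45.4 ± 28.3 CPM in cluster 1 (2.74 to 109, median 40.7), 213 ± 167 in cluster 2 (15.0 to 683, median 143) and 51.7 ± 42.4 in cluster 3 (6.61 to 128, median 43.6). Of the 32 cells of cluster 2, 15 lay at or below 128 CPM, the highest value outside it, and cells above 128 CPM were all in cluster 2. Without Hoxb2 the means were 13.6 ± 12.2, 108 ± 130 and 14.7 ± 16.0 CPM. The highest paralogue group found in a cell of cluster 2 was 1 or 2 in 3 cells, 3 in 5, 4 in 8, 5 in 13 and 6 to 13 in 3. At 5 or more counts, cluster 2 therefore held cells with genes of groups 1 and 2 alone beside cells with genes of higher groups. Some of the former held Hoxb3 and Hoxb4 below that cut, so the split depends on detection.

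**Figure D4:**
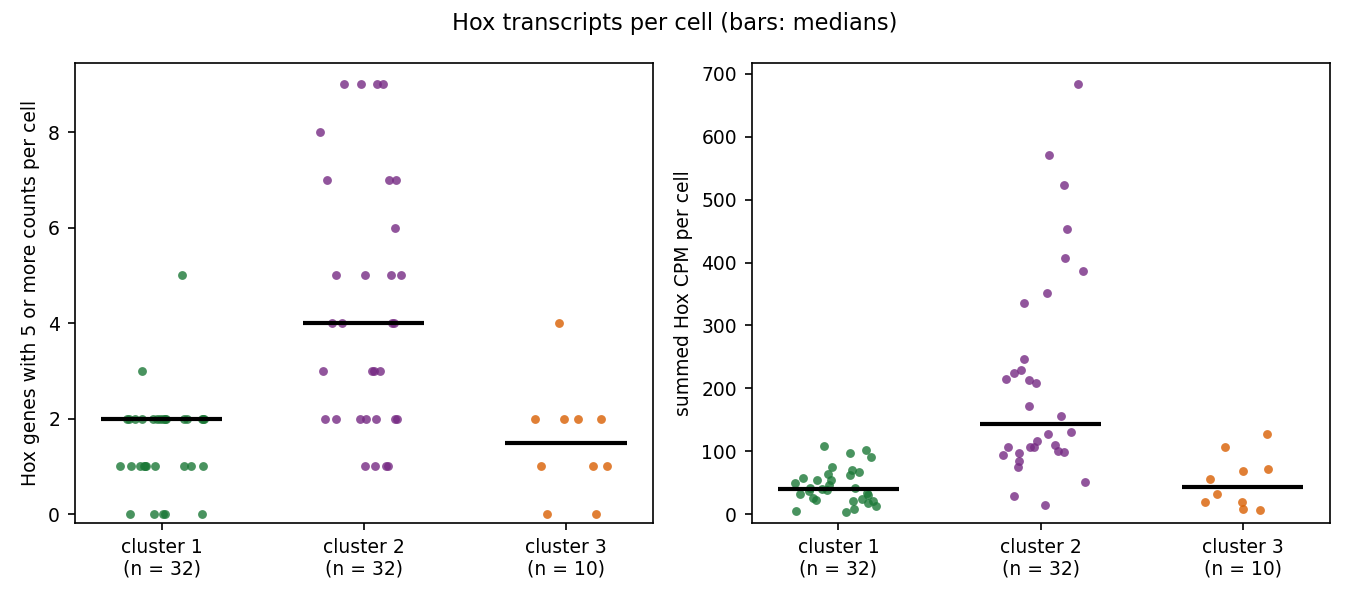
Number of Hox genes with 5 or more counts (left) and summed Hox CPM (right) in each cell, with 1 point per cell by cell cluster (32, 32 and 10 cells) and bars at the medians. The points of clusters 1 and 3 stay at or below 128 CPM, and those of cluster 2 run up to 683 CPM.

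Over all cells pooled, Hox genes were found in the same cells more often than independent detection would give. All of the 8 but Hoxb2 passed the filter through cluster 2, and pooling clusters of unequal detection raises such ratios. The pooled values are therefore descriptions, and no link between the genes is read from them. Among all cells the observed number with both genes was above that number for each of the 28 pairs of the 8 genes, at 1.06 to 4.63 times (median 1.56). The highest ratio was that of Hoxa2 and Hoxc4, with 6 cells against 1.30. Hoxa2 and Hoxb1 shared 8 cells against 2.27, and Hoxb1 and Hoxb5 shared 7 against 3.41. All 19 cells with Hoxb4, all 12 with Hoxa2 and all 8 with Hoxc4 also had Hoxb2. As Hoxb2 was in 62 of 74 cells, no pair with it can exceed a ratio of 1.19.

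Within cluster 2 the ratio was above 1 for 22 of 28 pairs, at 0.895 to 2.18 times with a median of 1.10, which is closer to 1 than over all cells. After thinning, 25 of 28 pairs were above 1 over all cells. Hoxb2 and the summed level of the other Hox genes had a rank correlation of 0.517 over all 74 cells and of 0.265 over the 32 cells of cluster 2. These values are CPM from the same libraries and are given without a test.

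Of 59 partner and regulator genes on 5 lists, 47 were detected in at least 10% of cells. In cluster 2, 7 of the 47 were higher (14.9%, against 6.78% of all genes) and 2 were lower (4.26%, against 5.89%), with a median ratio of 1.20. In cluster 1, 3 were higher (6.38%, against 5.12%) and 6 were lower (12.8%, against 10.5%). In cluster 3, 2 were higher (4.26%, against 8.29%) and 15 were lower (31.9%, against 17.2%).

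The TALE cofactors differed in how many cells they were found in, from 20 for Pbx4 and 23 for Pknox2 to 72 for Meis1. Meis3 was detected in 70 cells, and its means were 46.7 ± 40.1, 175 ± 83.5 and 200 ± 107 CPM in clusters 1 to 3, so it was high in the Hox-poor cluster 3 as well as in cluster 2. Meis1 stood at 105 ± 84.4, 145 ± 88.5 and 70.9 ± 44.4 CPM. Meis2 was found in 31, 25 and 2 cells of the clusters. Pbx4 was higher in cluster 1, at 7.70 ± 11.2 against 2.87 ± 6.85 CPM in cluster 2. The median ratio of the TALE genes in cluster 2 was 1.5, and their summed level had a rank correlation with the summed Hox level of 0.484 over 74 cells and 0.193 within cluster 2.

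Of the upstream regulators of the Hox clusters, the Cdx genes and T, which act in the tail bud, were at or near 0. Cdx1 and Cdx4 had no count, and Cdx2 and T reached 5 counts in no cell. Egr2, which drives Hoxb2 and Hoxa2 in the hindbrain, was in 6 cells of cluster 1, 6 of cluster 2 and none of cluster 3, with means of 3.70 ± 9.65, 5.98 ± 14.0 and 0.337 ± 1.07 CPM. Gata4 was in all 74 cells at 541 ± 188 CPM. The orphan receptor Nr6a1 and the ligand Gdf11, which act at the trunk-to-tail transition, stood at 13.4 ± 16.7 and 6.63 ± 10.2 CPM.

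Genes of retinoic acid, the signal that opens the 3′ Hox genes, were unequal between clusters. The receptor Rarb, itself a retinoic acid target, was in 13, 21 and 3 cells at 13.7 ± 18.7, 39.9 ± 44.2 and 12.9 ± 23.0 CPM. Rdh10, which makes retinaldehyde, was in 5, 13 and 0 cells. The binding protein Crabp1 was in 7, 13 and 1 cells and was 7.30 times higher in cluster 2 than in all other cells. Of the enzymes that make retinoic acid, Aldh1a2 had means of 14.1 ± 30.2, 53.6 ± 118 and 0 CPM, whereas Aldh1a1 had 39.9 ± 56.4, 1.47 ± 5.86 and 2.64 ± 8.35 and Aldh1a3 had 14.8 ± 18.3, 7.18 ± 9.24 and 2.49 ± 3.93. Aldh1a2 was found in 10 cells of cluster 1 and 8 of cluster 2, so its higher mean in cluster 2 came from fewer cells with higher levels.

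Crabp2, the most abundant gene of the list, was at 77.1 ± 77.7, 186 ± 130 and 315 ± 158 CPM, and Rxrb stood at 60.1 ± 36.7 CPM over all cells. Of the enzymes that break retinoic acid down, Cyp26a1 had no count and Cyp26b1 reached 5 counts in no cell, and Cyp26c1 was in 1 cell, of cluster 2. The chromatin regulators Ash2l, Ezh2 and Ctcf were in nearly all cells at 191 ± 74.6, 138 ± 74.4 and 118 ± 49.4 CPM, and of the chromatin list Ezh2 and Cbx2 were lower in cluster 3. Among partners and antagonists of Hox proteins, Gmnn, Tbx5 and Hipk2 were the most abundant, at 150 ± 95.9, 115 ± 103 and 76.0 ± 49 CPM. Tshz1 was higher in cluster 2, and Tbx5 was higher in cluster 3, where Gmnn and Tshz1 were lower.

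**Figure D5:**
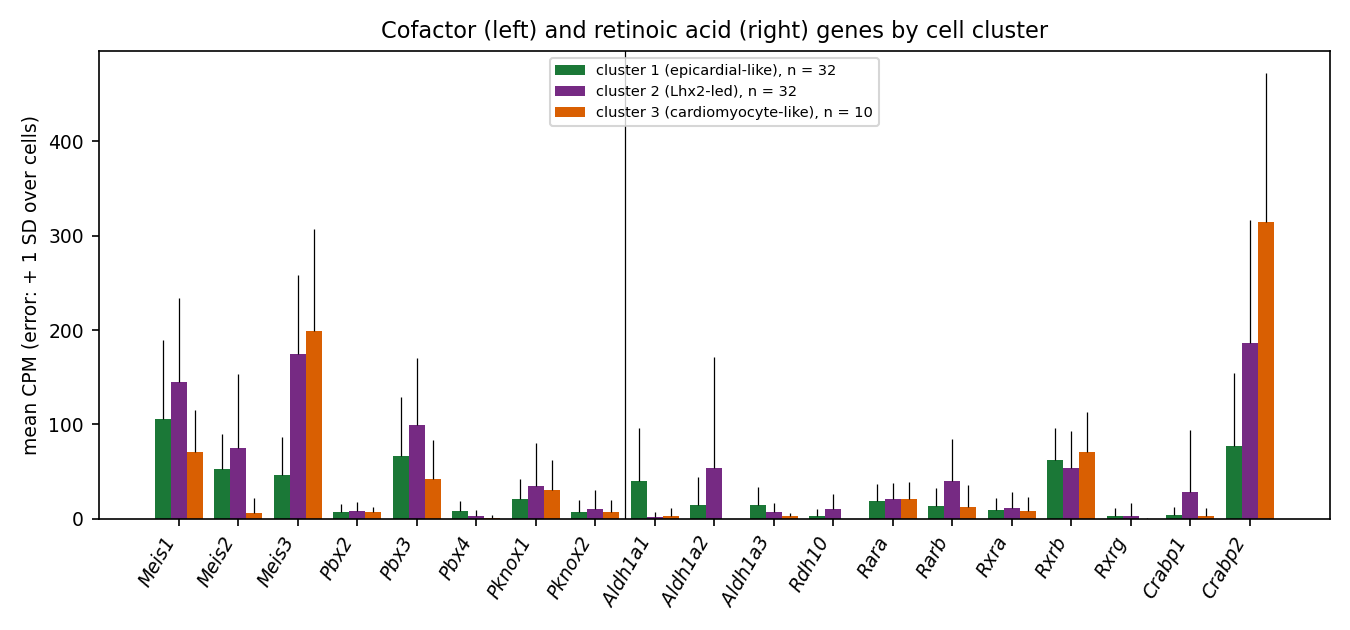
Mean CPM (bars, with 1 SD over cells above) of the TALE cofactors (left of the line) and retinoic acid genes (right) reported here that were detected in at least 10% of cells, by cell cluster of 32, 32 and 10 cells. Meis3 is lower in cluster 1 than in clusters 2 and 3, Rarb is highest in cluster 2, and Aldh1a1 is highest in cluster 1.

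Markers of other Hox-bearing tissues were read beside these results. Of 8 neural crest genes, Foxd3 was at 0, and the summed level ran from 0 to 193 CPM in cluster 2 (median 44.4), 0 to 244 in cluster 1 (median 39.6) and 0 to 68.8 in cluster 3 (median 0.352), mainly as Ets1, which was in 26 of 32 cells of cluster 2. Of 8 neural tube genes, Olig2 and Neurog2 were at 0, and the sum ran from 0 to 294 CPM in cluster 2, 0 to 110 in cluster 1 and 1.04 to 303 in cluster 3, mainly as Nes. Of 8 somite and limb genes, Tcf15, Myf5 and Lmx1b were at 0 and Tbx4 was in 3 cells, all of cluster 2. The sum ran from 0 to 309 CPM in cluster 2, 0 to 161 in cluster 1 and 0 to 26.1 in cluster 3, mainly as Fgf10. Its rank correlation with the summed Hox level was 0.483 within cluster 2, but 0.0435 over all 74 cells and -0.0716 within cluster 1.

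Of the 8 fibroblast markers, Col1a1, Col1a2, Col3a1, Lum and Pdgfrb were higher in cluster 2 and Dcn was lower, at a ratio of 0.109. Of the 15 septum transversum genes, Foxf1, Hlx, Lhx2, Alcam, Hand1 and Nr2f1 were higher in cluster 2 and Isl1 was lower, at 0.100, while Des, Wnt2, Bmp4, Isl1 and Tbx5 were higher in cluster 3. Within cluster 2 the cardiomyocyte list, whose sum ran from 446 to 13228 CPM there, had a rank correlation of -0.610 with the summed Hox level. Over all 74 cells it was -0.242 and within cluster 1 it was -0.326. Among the marker lists within cluster 2 this value was the lowest, and that of the somite and limb list was the highest. The part of these lists in the Hox levels was not tested.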

How the data were processed

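Full-length RNA libraries of 74 single cells were used. The authors deposited estimated counts, whole numbers for each gene with no correction for depth or length. The submitters' processing notes name kallisto and the build hg38, whereas the identifiers are mouse Ensembl identifiers; how gene totals were formed is not stated. GENCODE M21 (GRCm38) gave names to 29857 of 30323 identifiers, and the 466 without a name held 0.357% of counts.

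Counts were scaled to CPM. For clustering, log2(CPM + 1) of the 1000 genes with most variance over a lowess trend (fraction 0.3) was used, from 12293 that reached 5 counts in 5 or more cells, without Hox genes. It was centred, scaled, reduced to 10 principal components and cut into 3 clusters by Ward's method. No cell was left out and no doublet caller was run, since cells were sorted singly. Reads without molecular identifiers are not independent molecules, so intervals cover counting error alone. The upper limit given in the text for 0 is 3 cells. This rule is apart from the exact intervals, whose upper end for 0 of 74 cells is higher, at 4.86%.

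Values are given in full for Hox genes in at least 10% of cells and for the rarer member of highest single-cell CPM, and for the 3 most abundant partners of each list and those past 2-fold. Some items that this rule names, the proteins among them, are not reported here, though totals and counts include every Hox gene. Promoters were added after the values were seen. Genes leading a cluster of cells reached a mean of 20 CPM there and 50% of its cells. The members and lists were chosen with earlier results of these data known. Partner lists covered TALE cofactors, Hox regulators, retinoic acid, chromatin regulators and Hox protein partners. Marker lists used in the text covered neural tube, neural crest, somite and limb, fibroblast, cardiomyocyte, septum transversum and epicardial genes.

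Alternatives changed detection, scaling, low-count filter, fold, pseudocount, depth and clustering. The 2-fold rule was tried on simulated counts with given groups and with changes planted in abundant genes alone. Among Hox genes only Hoxb2 is that abundant. The clustering and the ratios of the sparser members were not tested in this way. Tables were handled with pandas 2.3.3 and numpy 2.4.6 (Python 3.11.15). Intervals and clusters came from SciPy 1.17.1 and the trend from statsmodels 0.14.6. Silhouettes and an alternative clustering by k-means came from scikit-learn 1.9.0. Alternative size factors came from scran 1.30.0 (R 4.3.3) and plots from matplotlib 3.10.9.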

Additional observations from a re-analysis of the deposited data

How the results depend on the processing

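No paired analysis was possible because there is 1 group and no test. Counts of genes past the 2-fold rule under the alternatives are given without the share of all genes. They are descriptions of how the rule behaves and not results about the Hox genes. The median number of Hox genes per cell was 4 at 1 or more counts and 1 at 10 or more, and the share of cells with 5 or more Hox genes was 41.9%, 12.2% and, in thinned cells, 10.4%. Without a filter on low counts, 6 Hox genes were higher and 19 lower in cluster 1, 21 higher and 6 lower in cluster 2, and 1 higher and 25 lower in cluster 3. These include members with hardly any counts, such as Hoxa10 and Hoxc10 with 1 count each, which pass the rule almost by necessity. Among genes in at least 25% of cells, which leaves 3 Hox genes, 3 were lower in cluster 1, 3 higher in cluster 2 and 0 lower in cluster 3. With a pseudocount of 10 CPM, 3 were lower in cluster 1, 4 higher in cluster 2 (Hoxa2, Hoxb1, Hoxb2 and Hoxb5) and 0 lower in cluster 3. Without the highest cell of the cluster and the highest of all other cells for each gene, 24 partner genes were lower in cluster 3.

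With 500 variable genes the clusters held 32, 17 and 25 cells, 1 Hox gene (Hoxb4, 2.07, against 0.517) was higher and 2 were lower in cluster 3, and the cluster 3 ratio turned to 1.67 for Hoxa2 and 1.09 for Hoxb5. With 5 components the clusters held 30, 31 and 13 cells, 5 Hox genes were higher in cluster 2, and the cluster 1 ratio of Hoxc4 turned to 1.83. The cause was not tested. Of 230 ratios of the 7 Hox genes named with values, under all alternatives, 207 kept their side of the 2-fold rule, 20 crossed it and 3 reversed. In cluster 2 the ratio of Hoxb2 ran from 2.13 to 3.26, that of Hoxb1 from 2.93 to 27.8, that of Hoxb5 from 2.42 to 17.2 and that of Hoxa2 from 2.32 to 31.6. At this depth a gene with few copies per cell can be missed, and embryos cannot be told apart.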
